A study of Mus musculus with 6 samples.

Results

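The genes described here encode the folding, translocation and quality-control machinery of the endoplasmic reticulum (ER), together with sensors of the unfolded protein response. They are 37 genes fixed by symbol, out of 55494 symbols in the count table, and were sorted into 8 roles. All 37 were among the 16097 genes that passed the filter on low counts. They were measured in primary mouse muscle stem cells of wildtype genotype, kept in culture for 2 days without (control, 3 libraries) or with 11,12-EET (3 libraries), an epoxide of arachidonic acid that cytochrome P450 enzymes make. All 6 libraries were cultured and carry the same genotype. No source used here states the dose, the control medium or whether replicates came from separate animals or cultures. The p-values set the difference between groups against the spread among these libraries within a group. Part of that spread may be technical, and whether the p-values extend to other animals or cultures is unknown. Each library is poly(A) RNA read as counts per gene, and the series asks how the compound affects these cells.

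Secreted and membrane proteins enter the ER through the Sec61 channel, assisted by the TRAP complex, and signal peptidase removes their signal peptides. Inside, the Hsp70 protein BiP (Hspa5), the Hsp90 protein Grp94 (Hsp90b1), the lectins calnexin and calreticulin and the disulfide isomerases fold them, and misfolded chains are sent back to the cytosol for ER-associated degradation. When unfolded proteins accumulate, the sensors IRE1 (Ern1), ATF6 and PERK (Eif2ak3) raise transcription of the same machinery and slow translation. In muscle stem cells, PERK signalling has been tied to the quiescent state and to survival during differentiation.

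Libraries held 30371291 to 37243882 counts. The 37 genes together took 0.943 to 0.999% of the counts in controls and 0.936 to 0.958% with EET, and these ranges overlapped. Levels below are CPM, counts scaled to library size by the TMM method, and changes are log2 fold changes of EET against control ± standard error from edgeR's quasi-likelihood test. A gene rose or fell where its Benjamini-Hochberg adjusted p, taken over all genes tested, was under 0.05. Of the 37 genes, 16 rose, 8 fell and 13 were not called, beside 47.9% of all tested genes called (24.6% higher and 23.3% lower). The median log2 fold change of the 37 was 0.080, against 0.0050 over all tested genes. The EET and control values did not overlap for 27 of the 37 (17 above and 10 below the controls), beside 57.7% of all tested genes. Members thus went in both directions as counted, with Sec61g, Sec61b and Ssr4 at the high end and Ern1, Sel1l and Atf6 at the low end of those called. In bulk libraries fewer cells of a type and less RNA per cell cannot be told apart.

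Direction followed mRNA length, and it did so among all genes. Of the 10 members with a longest mRNA under 2000 bp, 7 rose and 0 fell, with a median log2 fold change of 0.75. Among all tested protein-coding genes of that length, 2174 of 3320 rose and the median was 0.55. Of the 8 members of 4000 bp and over, 0 rose and 7 fell with a median of −0.29, where the median of protein-coding genes was −0.38. Of the 19 members from 2000 bp to under 4000 bp, 9 rose and 1 fell, with a median of 0.13. Among the 5643 protein-coding genes of that length, 1270 rose and 679 fell, with a median of 0.049. Members of this middle length thus rose more often than protein-coding genes of the same length. These are descriptions across genes, which share the same 6 libraries and are not independent. A library's own log2 slope per doubling of mRNA length was 0.116, 0.235 and 0.243 in control replicates 1, 2 and 3, and −0.269, −0.215 and −0.111 in EET replicates 1, 2 and 3. EET replicate 3, whose slope was nearest to the controls, was also the EET library nearest to the controls for 23 of the 24 called members. Control replicate 1 was the control nearest to the EET libraries for 17 of the 24. How length enters the counts was not tested.

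Each member's change is therefore also given after the trend of each library with mRNA length and GC content was removed, a value called length-adjusted here. It takes the length of the longest protein-coding transcript unless the median over a gene's transcripts is named. That choice sets the lengths of all genes in the fit, so a value can differ where the gene's own length does not. Sdf2l1, Creld2, Dnajc3 and Spcs3, for example, have 1 annotated transcript each. Over protein-coding genes the Spearman correlation of log2 fold change with length was −0.684 for the longest transcript and −0.4 for the median. With the longest transcript, 14 members rose, 11 fell and 12 were not called, beside 33.1% of all tested genes called (14.4% higher and 18.7% lower). The median of the members was −0.012, against −0.047 over all tested genes. The groups did not overlap for 24 members (13 above and 11 below the controls), beside 45.8% of all tested genes. Of the 24 genes called as counted, 10 were higher and 5 lower on both scales, and Edem1 turned from lower to higher. Without control replicate 2, 13 members were called on the length-adjusted scale in place of 25, 6 of them higher in place of 14 and 7 lower in place of 11; without EET replicates 1 and 2, 9 and 8 were higher.

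A stricter combination, chosen after the values were seen, took the genes called in 1 direction as counted, length-adjusted and length-adjusted by the median transcript. It held 8 members that rose (Derl1, Derl2, Spcs2, Sec61g, Manf, Dnajb11, Creld2 and Xbp1) and 5 that fell (Atf6, Ern1, Hyou1, Sec61a1 and Sel1l). These are 35.1% of the 37 members, beside 18.2% of all tested genes (8.57% higher and 9.6% lower). The 16097 tested genes, 13929 of them protein-coding, were not matched to the members in level. The settings combined here share the same counts and are not independent. Length-adjusted, 7046 of all genes were called with the median transcript and 5333 with the longest. Leaving out any 1 library kept the call as counted and length-adjusted for Derl2, Spcs2, Sec61g, Manf, Ern1, Sec61a1 and Sel1l. The other 6 lost a call without at least 1 library, given with each gene below.

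**Figure D1:**
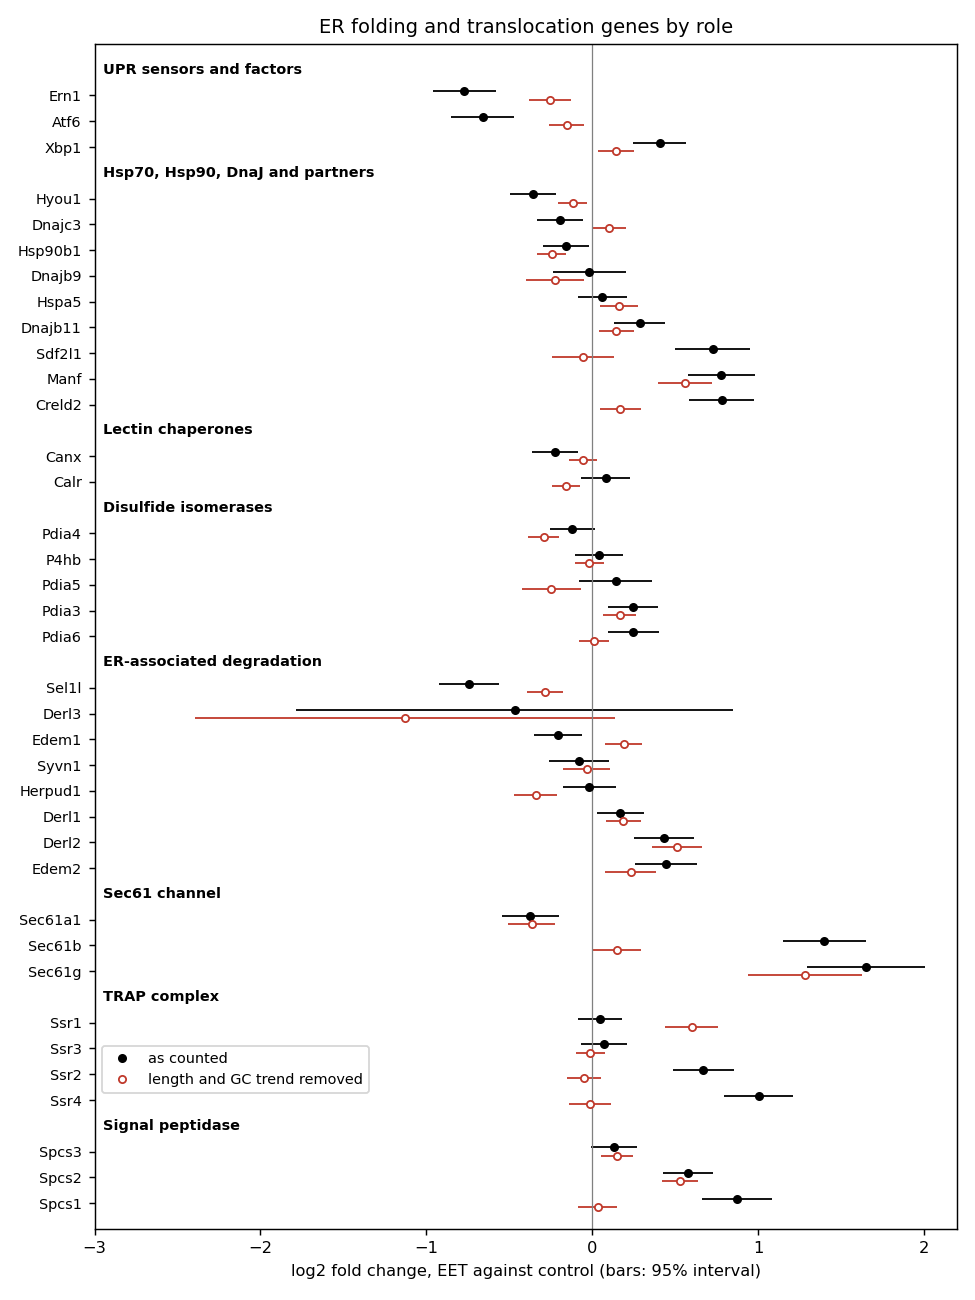
Log2 fold change of EET against control (x axis) for each of the 37 genes, grouped by role. Filled points are values as counted, open points length-adjusted values, and bars are 95% intervals. Sec61g, Sec61b and Ssr4 lie farthest to the right as counted, and the open points of Sec61b and Ssr4 lie near 0.

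Of the sensors and transcription factors, the mRNAs of both listed sensors fell and Xbp1 rose. Ern1 encodes the kinase and endonuclease IRE1. Its level was 57.5, 64.8 and 66.9 CPM in control replicates 1, 2 and 3 and 34.2, 36.1 and 40.4 CPM in EET replicates 1, 2 and 3. Every EET library lay below every control. Its log2 fold change was −0.77 ± 0.089 (adjusted p = 8.69e-06), and −0.26 length-adjusted (adjusted p = 0.00237) and −0.72 with the median transcript (adjusted p = 8.43e-06). Atf6 encodes a membrane-bound factor that is cut in the Golgi and then acts in the nucleus. Its level was 107, 132 and 123 CPM in the controls and 71.7, 72.6 and 84.4 CPM with EET, again without overlap. It changed by −0.66 ± 0.089 (adjusted p = 2.96e-05), and by −0.15 length-adjusted (adjusted p = 0.024). That second call was lost without control replicate 2 or EET replicate 2 (adjusted p = 0.105 to 0.162) and with a loess of degree 2 (adjusted p = 0.0628). Xbp1 encodes the factor whose mRNA IRE1 splices. It measured 87.7, 82.9 and 86.7 CPM in the controls and 119.6, 118 and 103 CPM with EET, so the EET libraries were the high ones and the groups did not overlap. The change was 0.40 ± 0.074 (adjusted p = 0.000364), and 0.14 length-adjusted (adjusted p = 0.0444), a call lost without control replicate 1 or 2 or EET replicate 1 or 2 (adjusted p = 0.105 to 0.19), with a loess span of 0.5 (adjusted p = 0.0524) and with length alone (adjusted p = 0.0679). Counts per gene do not separate spliced from unspliced Xbp1, so its processing was not measured.

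The third arm of the response is read from genes outside the 37. Eif2ak3, which encodes the sensor PERK, measured 22.7, 23.5 and 23.5 CPM in the controls and 17.8, 17.6 and 17.0 CPM with EET. It was lower in every EET library, with a log2 fold change of −0.41 ± 0.089 (adjusted p = 0.00143), and not called length-adjusted (−0.16, adjusted p = 0.151) unless the median transcript gave the length (−0.60, adjusted p = 4.47e-05). All 3 ER stress sensors were thus lower as counted, and the mRNA of each was 4000 bp or longer, a length at which 2879 of 4966 protein-coding genes fell. Atf4, the transcription factor whose translation PERK promotes, measured 405, 379.7 and 366 CPM in the controls and 613, 602 and 553 CPM with EET. It rose by 0.62 ± 0.069 (adjusted p = 6.58e-06), with no overlap, and by 0.19 length-adjusted (adjusted p = 0.000809) or 0.55 with the median transcript (adjusted p = 4.89e-06). Ddit3 encodes CHOP, a factor induced late in ER stress. Its level was 11.2, 12.5 and 11.4 CPM in the controls and 12.3, 13.3 and 10.5 CPM with EET, and the groups overlapped. Its log2 fold change was 0.038 ± 0.12, with a 95% interval of −0.22 to 0.30 (adjusted p = 0.825), and it turned to −0.032 when libraries were scaled by their totals alone. Ddit3 is short (890 bp), and its length-adjusted value was −0.90 (adjusted p = 2.89e-06), or −0.23 with the median transcript (adjusted p = 0.124).

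Chaperones of the Hsp70, Hsp90 and DnaJ families and their partners split: of 9 genes, 4 rose (Creld2, Manf, Sdf2l1 and Dnajb11), 2 fell (Hyou1 and Dnajc3) and 3 were not called, including Hspa5, the most abundant of them per kilobase of mRNA. Hspa5 encodes BiP, the chief Hsp70 of the lumen, whose level was 1324, 1204 and 1143 CPM in the controls and 1245, 1315 and 1269 CPM with EET. The groups overlapped. Its log2 fold change was 0.061 ± 0.070, with a 95% interval of −0.088 to 0.21 (adjusted p = 0.509), and −0.0078 with scaling by library totals. Length-adjusted it was 0.16 (adjusted p = 0.0289), a call lost without control replicate 2 or 3 or EET replicate 1 or 2 (adjusted p = 0.0842 to 0.143), and −0.10 with the median transcript (adjusted p = 0.168). Hsp90b1, the Hsp90 of the ER, measured 860.5, 824 and 799.5 CPM in the controls and 717, 739 and 768 CPM with EET. Each EET library lay below each control; the log2 fold change was −0.16 ± 0.064 and missed the threshold (adjusted p = 0.0526). It passed the threshold without EET replicate 3 (adjusted p = 0.0243), with DESeq2 (adjusted p = 0.0248), with its size factors in edgeR (adjusted p = 0.0371), with library totals (adjusted p = 0.00926), with counts divided by 2 (adjusted p = 0.044) and with the replicate block (adjusted p = 0.0148). It was −0.25 length-adjusted (adjusted p = 0.00011).

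Creld2 and Manf, which encode small lumenal proteins induced by ER stress, showed the largest rises as counted among the chaperones. Manf measured 97.0, 89.9 and 85.7 CPM in the controls and 172, 165 and 131 CPM with EET. Every EET library was higher, and the change was 0.78 ± 0.094 (adjusted p = 1.33e-05) and 0.56 length-adjusted (adjusted p = 0.000117). That 0.56 rests on the longest Manf transcript, 2247 bp, where the median over its 7 transcripts is 545 bp. Creld2, a disulfide isomerase-like partner, measured 46.5, 38.7 and 41.5 CPM in the controls and 78.3, 74.0 and 65.1 CPM with EET, without overlap. It changed by 0.78 ± 0.092 (adjusted p = 9.88e-06) and by 0.17 length-adjusted (adjusted p = 0.0342), a call lost without control replicate 2 or EET replicate 1 or 2 (adjusted p = 0.0818 to 0.186). Creld2 was 0.60 with the median transcript (adjusted p = 1.95e-05). Sdf2l1, a BiP cofactor, measured 13.1, 12.7 and 12.9 CPM in the controls and 23.0, 22.1 and 18.7 CPM with EET. The groups stood apart, by 0.73 ± 0.11 (adjusted p = 5.53e-05). Length-adjusted, Sdf2l1 was −0.057 (adjusted p = 0.669), and 0.47 with the median transcript (adjusted p = 0.00086). Its only annotated transcript is 1108 bp, so just the trend fitted over all genes differs between these values. Hyou1, an Hsp70 relative that exchanges the nucleotide of BiP, measured 405, 414 and 402 CPM in the controls and 313, 303 and 338 CPM with EET. All EET libraries were lower. Its log2 fold change was −0.36 ± 0.065 (adjusted p = 0.000368), and −0.12 length-adjusted (adjusted p = 0.0352), a call lost without control replicate 1 or 2 or EET replicate 1 or 2 (adjusted p = 0.0691 to 0.14). Its value with the median transcript was −0.24 (adjusted p = 0.00238). Of the J-domain co-chaperones, Dnajb11 rose by 0.28 ± 0.073 (adjusted p = 0.00458) and by 0.14 length-adjusted (adjusted p = 0.0344), the latter lost without control replicate 2 or 3 or EET replicate 2 (adjusted p = 0.139 to 0.201) and with length alone (adjusted p = 0.0769). Dnajb11 was 0.29 with the median transcript (adjusted p = 0.00208). Dnajc3 fell by 0.19 ± 0.065 on the log2 scale (adjusted p = 0.0235), a call lost without control replicate 2 or 3 or EET replicate 1 or 2 (adjusted p = 0.0569 to 0.116). Length-adjusted it had the opposite sign (0.10, adjusted p = 0.127), and with the median transcript it rose (0.28, adjusted p = 0.00294). Dnajb9 was not called (−0.020 ± 0.10, adjusted p = 0.895), and its value changed sign without control replicate 3 (0.047) or EET replicate 3 (0.061). Its length-adjusted value was −0.22 (adjusted p = 0.0447), a call lost without control replicate 2 or 3 or EET replicate 1 or 3 (adjusted p = 0.0595 to 0.255) and −0.014 with the median transcript.

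Many of these chaperone genes carry the ER stress response element (ERSE), the site at which ATF6 acts with the factor NF-Y, spelled CCAAT, 9 bases and CCACG. Promoter windows from 250 bases before to 50 after the start were taken from RefSeq (GRCm38.p6) for 30 of the 37 genes, as 31 windows. An exact ERSE on either strand stood in 9 of the 31 windows (29%) and in 39 of all 32851 windows (0.119%). The shorter form called ERSE-II, ATTGG, 1 base and CCACG, stood in 2 of the 31 (6.45%) and in 12 of all windows (0.0365%). The sequences below are shown because the element is the textbook mark of ER chaperone promoters. Each runs 5′ to 3′ along the gene's strand with 15 bases on either side, and capitals mark the element. Where capitals begin with CGTGG, the match lies on the opposite strand. Herpud1 shows the shorter form, and Hsp90b1 holds 2 ERSE matches.

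Hspa5 promoter, chr2:34772010-34772058, plus strand, GRCm38.p6: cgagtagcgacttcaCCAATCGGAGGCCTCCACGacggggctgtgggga
Hsp90b1 promoter, chr10:86705518-86705671, minus strand, GRCm38.p6: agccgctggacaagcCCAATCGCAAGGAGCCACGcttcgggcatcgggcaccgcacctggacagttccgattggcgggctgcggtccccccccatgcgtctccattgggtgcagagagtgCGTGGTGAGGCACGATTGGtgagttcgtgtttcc
Calr promoter, chr8:84847060-84847108, minus strand, GRCm38.p6: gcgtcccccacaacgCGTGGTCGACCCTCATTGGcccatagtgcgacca
Canx promoter, chr11:50325785-50325833, minus strand, GRCm38.p6: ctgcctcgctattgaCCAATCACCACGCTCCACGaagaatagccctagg
Pdia6 promoter, chr12:17266476-17266524, plus strand, GRCm38.p6: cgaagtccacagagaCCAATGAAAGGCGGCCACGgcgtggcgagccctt
Dnajc3 promoter, chr14:118937812-118937860, plus strand, GRCm38.p6: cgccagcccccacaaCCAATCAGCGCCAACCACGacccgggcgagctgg
Creld2 promoter, chr15:88819505-88819553, plus strand, GRCm38.p6: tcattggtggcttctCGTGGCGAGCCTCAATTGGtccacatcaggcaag
Herpud1 promoter, chr8:94386362-94386402, plus strand, GRCm38.p6: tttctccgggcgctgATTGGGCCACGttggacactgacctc

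Members that share this element did not share a direction. Of the 9 genes with an ERSE, 2 rose (Creld2 and Pdia6), 2 fell (Dnajc3 and Canx) and 5 were not called (Hspa5, Hsp90b1, Calr, Syvn1 and Derl3), with a median log2 fold change of −0.082. Length-adjusted, 2 rose (Creld2 and Hspa5), 2 fell (Hsp90b1 and Calr) and 5 were not called, with a median of −0.033. Of the 21 members with a window and no ERSE, 11 rose, 3 fell and 7 were not called, with a median of 0.24. Length-adjusted, 9 of these 21 rose, 6 fell and 6 were not called, with a median of 0.031. Over all tested genes, 24.6% rose and 23.3% fell as counted, and 14.4% and 18.7% length-adjusted. The ERSE-II carriers were Herpud1, which was not called, and Dnajb11, which rose. Exact matches of the core of the UPR element, TGACGTG followed by G or A, stood in 1 of the 31 windows (3.23%) beside 1.12% of all windows. The core of the amino acid response element to which ATF4 binds, TGATG, 1 base and AA, stood in 1 of 31 beside 3.97%. A match describes letters in the window; binding was not measured.

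**Figure D2:**
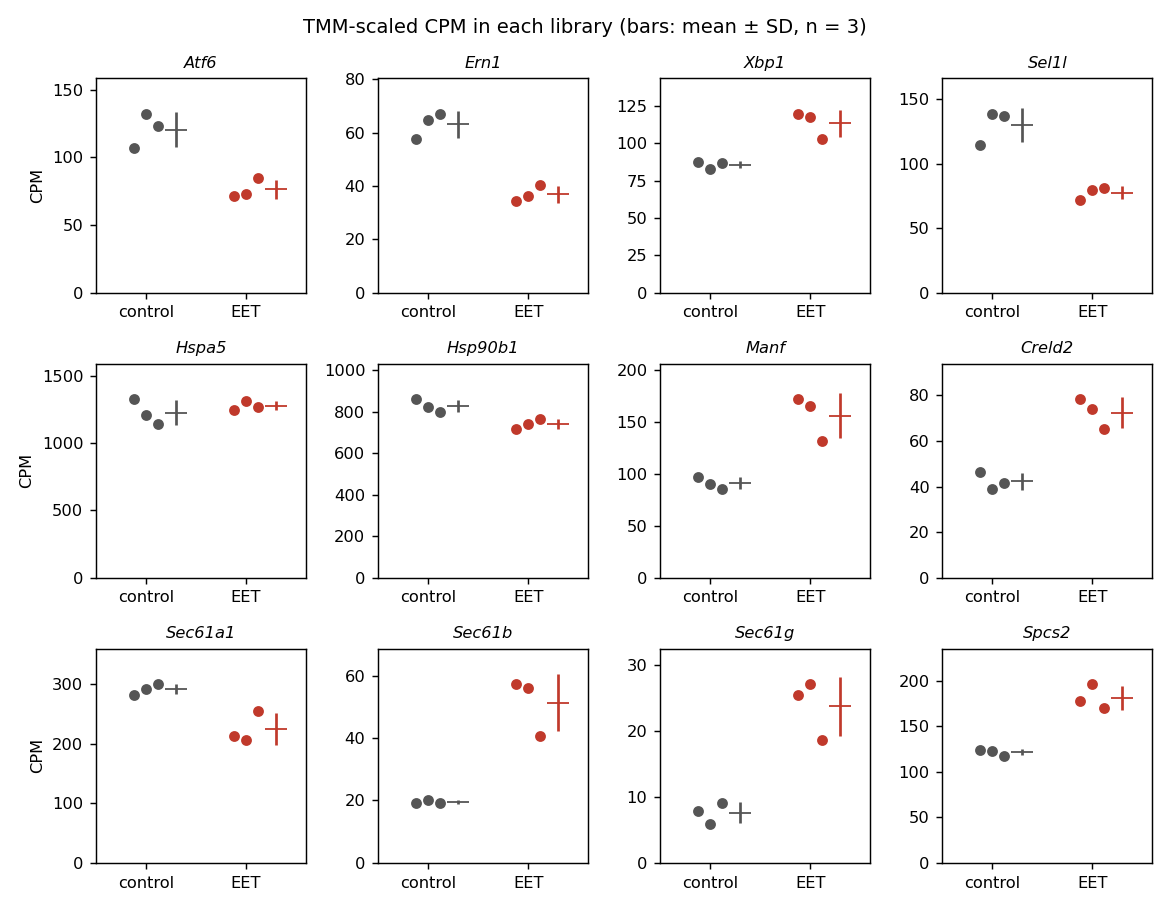
CPM (y axis, from 0) in each of the 3 control and 3 EET libraries for 12 of the genes, with mean ± SD bars beside the points. Atf6, Ern1, Sel1l and Sec61a1 lie lower with EET, Xbp1, Manf, Creld2, Sec61b, Sec61g and Spcs2 lie higher, and the points of Hspa5 overlap.

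The lectin chaperones, which hold glycoproteins through their sugars, and the disulfide isomerases, which form and exchange disulfide bonds, are 7 genes, of which 2 rose, 1 fell and 4 were not called. Canx (calnexin) fell by 0.23 ± 0.065 on the log2 scale (adjusted p = 0.00933), a call lost without control replicate 2 or EET replicate 1 (adjusted p = 0.0537 to 0.0549), and was −0.057 length-adjusted (adjusted p = 0.319). Calr (calreticulin) was at 923 ± 54.8 CPM in the controls and 976 ± 47.9 CPM with EET (SD, n = 3 each), with a 95% interval of the log2 fold change of −0.067 to 0.23. Its length-adjusted value was −0.16 (adjusted p = 0.00505), and −0.10 with the median transcript (adjusted p = 0.136). Of the 5 isomerases, Pdia3, which works with the lectins, rose by 0.24 ± 0.071 (adjusted p = 0.0103) and Pdia6 by 0.25 ± 0.072 (adjusted p = 0.0106). The Pdia3 call was lost without control replicate 2 or 3 or EET replicate 2 (adjusted p = 0.0532 to 0.0714), and that of Pdia6 without control replicate 2 or 3 or EET replicate 2 (adjusted p = 0.0521 to 0.0764). Length-adjusted, Pdia3 was 0.17 (adjusted p = 0.0107), a call lost without control replicate 2 or 3 or EET replicate 1 or 2 (adjusted p = 0.0614 to 0.0763), and Pdia6 was 0.0097 (adjusted p = 0.894), or 0.057 with the median transcript (adjusted p = 0.464). P4hb, Pdia4 and Pdia5 were not called, with 95% intervals of −0.10 to 0.18, −0.26 to 0.017 and −0.080 to 0.36. Pdia4 was −0.29 length-adjusted (adjusted p = 2.62e-05), or −0.18 with the median transcript (adjusted p = 0.0173). Pdia5 was −0.25 (adjusted p = 0.031), a call lost without control replicate 2 or 3 or EET replicate 1 or 3 (adjusted p = 0.0513 to 0.138). With scaling by library totals Pdia4 fell as well (adjusted p = 0.0248), and with the median transcript the calls of Pdia3 (adjusted p = 0.283) and Pdia5 (adjusted p = 0.289) were lost, while Canx (−0.34, adjusted p = 0.000129) and P4hb (−0.22, adjusted p = 0.00417) were lower.

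Per kilobase of the longest mRNA, the folding enzymes were the most abundant members. In the controls Calr stood at 423, Hspa5 at 333, P4hb at 317, Hsp90b1 at 293 and Pdia3 at 286 CPM per kilobase. With EET the same 5 genes stood at 447, 348, 326, 262 and 338 CPM per kilobase. The sensors were far lower, with Atf6 at 16.6 and Ern1 at 9.08 CPM per kilobase in the controls, and 10.5 and 5.32 with EET. Derl3 had the lowest level, 0.296 CPM per kilobase in the controls.

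Of the 8 genes of ER-associated degradation, 3 rose (Derl1, Derl2 and Edem2), 2 fell (Sel1l and Edem1) and 3 were not called. Sel1l, the adaptor that holds the ubiquitin ligase Hrd1 (Syvn1), measured 114, 138 and 137 CPM in the controls and 71.8, 79.7 and 81.4 CPM with EET. Every EET library was below every control. The change was −0.74 ± 0.085 (adjusted p = 7.75e-06), and −0.29 length-adjusted (adjusted p = 0.000221) and −0.79 with the median transcript (adjusted p = 4.38e-06). Syvn1 itself was not called (−0.082 ± 0.085, 95% interval −0.26 to 0.10), nor was it length-adjusted (−0.033, or 0.088 with the median transcript). Derl2, a membrane protein of the retrotranslocation channel, measured 41.1, 42.6 and 48.6 CPM in the controls and 62.1, 60.8 and 55.5 CPM with EET. The EET libraries were the higher ones without overlap, by 0.43 ± 0.086 (adjusted p = 0.000705) and 0.51 length-adjusted (adjusted p = 1.97e-05). That 0.51 rests on the longest Derl2 transcript, 3666 bp, where the median over the 7 transcripts of Derl2 is 884 bp. Its paralog Derl1 changed by 0.17 ± 0.066 (adjusted p = 0.048), a call lost without control replicate 1, 2 or 3 or EET replicate 1 or 2 (adjusted p = 0.0583 to 0.185), with no filter (adjusted p = 0.132), with DESeq2 (adjusted p = 0.0698), with its size factors in edgeR (adjusted p = 0.066) and with scaling by library totals (adjusted p = 0.264). Length-adjusted it was 0.19 (adjusted p = 0.00708). Edem2, a mannose-trimming factor that marks glycoproteins for disposal, measured 24.4, 22.6 and 23.3 CPM in the controls and 33.0, 33.0 and 29.6 CPM with EET, again apart. It changed by 0.44 ± 0.088 (adjusted p = 0.00072) and by 0.23 length-adjusted (adjusted p = 0.0205), a call lost without control replicate 2 or EET replicate 1 or 2 (adjusted p = 0.0545 to 0.0913) and with the median transcript (adjusted p = 0.0512). Its relative Edem1 fell by 0.21 ± 0.068 on the log2 scale (adjusted p = 0.0199), a call lost without control replicate 2 or 3 or EET replicate 1 or 2 (adjusted p = 0.0592 to 0.109). Edem1 rose by 0.19 length-adjusted (adjusted p = 0.00923), a call lost without control replicate 2 (adjusted p = 0.0769). With the median transcript it fell again (−0.35, adjusted p = 0.000343), so its direction depends on the length used. Herpud1, a scaffold of the Hrd1 complex, was not called (−0.018 ± 0.074, adjusted p = 0.868), and changed sign without control replicate 1 (0.012) or EET replicate 1 (0.0041). It was −0.34 length-adjusted (adjusted p = 0.000218). Derl3 had 14, 11 and 16 counts in the controls and 19, 3 and 6 with EET, and its interval ran from −1.78 to 0.85, so a change was not detectable at this depth.

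Among the translocation genes, the small subunits Sec61g, Sec61b, Ssr4 and Spcs1 showed the largest rises of the 37 as counted, while the pore-forming subunit of the same channel fell. Sec61b, the beta subunit, measured 19.1, 20.2 and 19.1 CPM in the controls and 57.2, 56.1 and 40.7 CPM with EET. Sec61g, the gamma subunit, measured 7.91, 5.84 and 9.03 CPM in the controls and 25.5, 27.0 and 18.7 CPM with EET. For both, all EET libraries were higher, and EET replicate 3 was the lowest of them. The changes were 1.40 ± 0.12 for Sec61b (adjusted p = 1.28e-06) and 1.65 ± 0.17 for Sec61g (adjusted p = 4.37e-06). Sec61a1, which forms the pore, went from 291 ± 8.57 CPM to 225 ± 26.4 CPM (SD, n = 3 each), with no overlap between groups. It changed by −0.37 ± 0.080 (adjusted p = 0.00121). Length-adjusted, Sec61a1 was −0.37 (adjusted p = 0.000902) and Sec61g 1.28 (adjusted p = 7.94e-05), and both kept their call in every run without 1 library. Sec61a1 was −0.65 with the median transcript (adjusted p = 0.00014), and Sec61g rose there too (adjusted p = 1.77e-05). The longest Sec61g transcript is 1862 bp, where the median over its 7 transcripts is 691 bp. The 1.28 and the level per kilobase of Sec61g rest on the longest. The 564 bp Sec61b gave 0.15 (adjusted p = 0.123) length-adjusted and 1.05 with the median transcript (adjusted p = 2.9e-06). Its own median length, 497 bp, is close to the longest. Its call thus depends on which length measure the fit over all genes used. Per kilobase, Sec61a1, Sec61b and Sec61g stood at 91.8, 34.5 and 4.08 CPM per kilobase in the controls and 70.9, 91.0 and 12.7 with EET. Sec61g has 9 near-identical gene copies and Sec61b 3. Those copies held 55 and 27 counts over the 6 libraries, beside 3142 and 7152 for the genes themselves, so reads may have been split between them.

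The TRAP complex, which aids the entry of some signal peptides, has 4 genes here, of which Ssr4 and Ssr2 rose and Ssr1 and Ssr3 were not called. Ssr4 measured 36.6, 37 and 35.7 CPM in the controls and 80.7, 76.9 and 61.5 CPM with EET, and Ssr2 138, 115 and 112 CPM and 201, 202 and 178 CPM. Both were higher in every EET library, by 1.00 ± 0.096 for Ssr4 (adjusted p = 2.39e-06) and 0.67 ± 0.085 for Ssr2 (adjusted p = 1.82e-05). Neither was called length-adjusted (−0.015 and −0.049, adjusted p = 0.877 and 0.473). With the median transcript they were 0.72 (adjusted p = 7.99e-06) and 0.33 (adjusted p = 0.00052). Ssr3 had an interval of −0.067 to 0.21 and was not called length-adjusted (−0.012, or 0.084 with the median transcript). Ssr1 had one of −0.085 to 0.18 and turned to −0.022 with scaling by library totals. The longest Ssr1 transcript is 9333 bp, which gave 0.60 (adjusted p = 0.000116), where the median of 1718 bp gave 0.093 (adjusted p = 0.173).

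Of the signal peptidase genes, Spcs1 and Spcs2, 2 of its accessory subunits, rose and Spcs3 was not called. Spcs2 measured 124, 123 and 118 CPM in the controls and 177, 196 and 170.0 CPM with EET. The groups stood apart, by 0.57 ± 0.071 (adjusted p = 1.39e-05) and almost as far length-adjusted (0.53, adjusted p = 2.2e-07). That 0.53 rests on the longest Spcs2 transcript, 2909 bp, where the median over its 10 transcripts is 874.5 bp. Spcs1 measured 50.0, 46.3 and 42.2 CPM in the controls and 92.1, 89.7 and 71.7 CPM with EET, all EET values being higher. It changed by 0.87 ± 0.099 (adjusted p = 8.1e-06), but by 0.031 length-adjusted (adjusted p = 0.709) and 0.66 with the median transcript (adjusted p = 1.88e-05). Spcs3 was higher in every EET library by 0.13 ± 0.065 (adjusted p = 0.111), and by 0.15 length-adjusted (adjusted p = 0.0171), a call lost without control replicate 2 or 3 (adjusted p = 0.0598 to 0.118). Spcs3 was 0.44 with the median transcript (adjusted p = 7.55e-05). Spcs1 is 1 of 11 members whose exons overlap a gene on the other strand, here Glt8d1. The others are Derl2, Dnajb9, Hsp90b1, Manf, Pdia3, Pdia6, Sec61a1, Spcs3, Ssr2 and Syvn1, and since no source states whether counting used strand, their values may include reads of the partner. On the same strand, exons of Manf overlap Rbm15b, those of Hsp90b1 overlap Gm15344 and Gm25745, and those of Pdia4 overlap Mir704. How reads in such overlaps were assigned is likewise not stated.

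**Figure D3:**
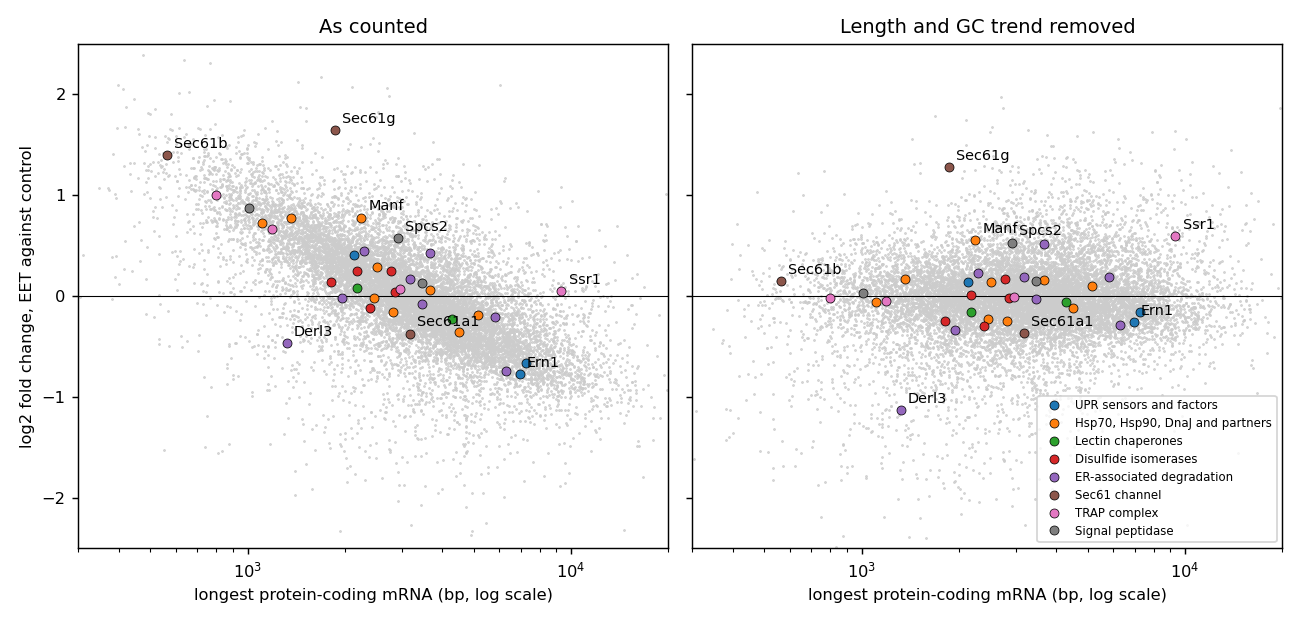
Log2 fold change of EET against control (y axis) against the length of the longest protein-coding mRNA (x axis, log scale), as counted (left panel) and after removal of the length and GC trend (right panel). Grey points are tested protein-coding genes within the axes and coloured points are the 37 members by role. On the left, 7 of the 10 members under 2000 bp are higher and 7 of the 8 members of 4000 bp and over are lower. On the right, 2 of those 10 are higher and 2 lower, and 2 of those 8 are higher and 4 lower. Of the 19 members between these lengths, 9 are higher and 1 lower on the left, and 10 higher and 5 lower on the right.

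The 113 other genes of the pathway fall into 9 lists. As counted 55 rose, 26 fell and 32 were not called, beside 47.9% of all tested genes called. Length-adjusted 29 rose, 19 fell and 65 were not called, beside 33.1%. With scaling by library totals 44 rose and 34 fell. All 113 were tested. Their median log2 fold change was 0.19, and −0.00045 length-adjusted. In the list of the signal recognition particle and its receptor, which bring ribosomes to the channel, 4 of 8 genes rose and 3 fell. There Srp9 rose by 1.15 ± 0.086 (length-adjusted 0.55, or 1.09 with the median transcript) and Srp19 by 1.08 ± 0.091 (length-adjusted 0.17, or 0.97). For the other listed genes a value after "or" is likewise by the median transcript. Of 10 subunits of the ER membrane complex, which inserts membrane proteins, 8 rose and 2 fell. Emc6 changed by 0.88 ± 0.085 (length-adjusted 0.26, or 0.72) and Emc4 by 0.72 ± 0.092 (length-adjusted −0.13 and not called, or 0.51 and called), and length-adjusted 4 of the 10 rose and 0 fell. Among 7 other translocon and signal peptidase genes, 3 rose and 2 fell, with Sec11c at 0.66 ± 0.10 and Sec11a at 0.53 ± 0.095. Both Sec11 genes, the catalytic subunits, were below 0 length-adjusted (−0.28 and −0.085, the first called) and rose by the median transcript (0.47 and 0.36, adjusted p = 0.000745 and 0.00248), so their direction depends on the length used. The length-adjusted call of Srp19 was lost without control replicate 1 or 2 or EET replicate 1 or 2 (adjusted p = 0.0738 to 0.149), and that of Sec11c without EET replicate 1 (adjusted p = 0.0544).

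Of 12 oligosaccharyltransferase genes, which attach N-glycans, 7 rose and 3 fell, and length-adjusted 4 rose and 1 fell. Ostc rose by 0.95 ± 0.091 and 0.17 length-adjusted, the latter lost without control replicate 2 or EET replicate 2 (adjusted p = 0.0629 to 0.11), or 0.85 by the median transcript. Tmem258 rose by 1.15 ± 0.13 (length-adjusted −0.059 and not called, or 0.92 and called). In N-glycan trimming and quality control the balance was the other way, with 3 of 11 higher and 6 lower, and length-adjusted 1 higher and 4 lower. The median longest mRNA was 3755 bp in this list and 2438 bp in the oligosaccharyltransferase list. Over all tested protein-coding genes it was 3198 bp. Mcfd2, a cargo receptor partner, rose by 0.55 ± 0.065 (length-adjusted 0.26, or 0.36), and Edem3, a mannosidase, fell by 0.69 ± 0.10 on the log2 scale (length-adjusted −0.29, or −0.40). Of 24 other folding enzymes and co-chaperones, 12 rose and 1 fell, and length-adjusted 4 rose and 3 fell. Cnpy2 rose by 1.18 ± 0.12 (length-adjusted 0.58, or 0.88) and Erp29 by 0.80 ± 0.093 (length-adjusted 1.13, or 1.01). Of 18 other degradation genes, 9 rose and 3 fell, and length-adjusted 6 rose and 1 fell. The smallest p belonged to the ubiquitin-conjugating enzyme Ube2j2 at 0.72 ± 0.074 (length-adjusted 0.80, or 0.52), followed by Selenos at 0.67 ± 0.097 (length-adjusted −0.020 and not called, or 0.53 and called).

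Genes that carry the sensors' signal did not move one way. Of 11 genes that activate ATF6 and IRE1 or are related factors, 4 rose and 4 fell, and length-adjusted 3 rose and 2 fell. The membrane-bound factors Creb3 and Creb3l2 went in opposite directions, 0.55 ± 0.10 and −0.62 ± 0.079, and were 0.19 and −0.094 length-adjusted, where neither was called. By the median transcript both were called, at 0.26 (adjusted p = 0.0215) and −0.25 (adjusted p = 0.00487). Of 12 genes of the PERK arm and targets of ATF4, 5 rose, 2 fell and 5 were not called, and length-adjusted 2 rose and 3 fell. Besides Atf4, Cebpb had the smallest p of this list. It rose by 0.54 ± 0.11 (adjusted p = 0.000909), and was −0.13 length-adjusted (adjusted p = 0.307), or 0.089 by the median transcript (adjusted p = 0.525). Without control replicate 1 that length-adjusted fall of Cebpb passed the test (adjusted p = 0.0177), as did the length-adjusted rise of Creb3 without EET replicate 3 (adjusted p = 0.0437).

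**Figure D4:**
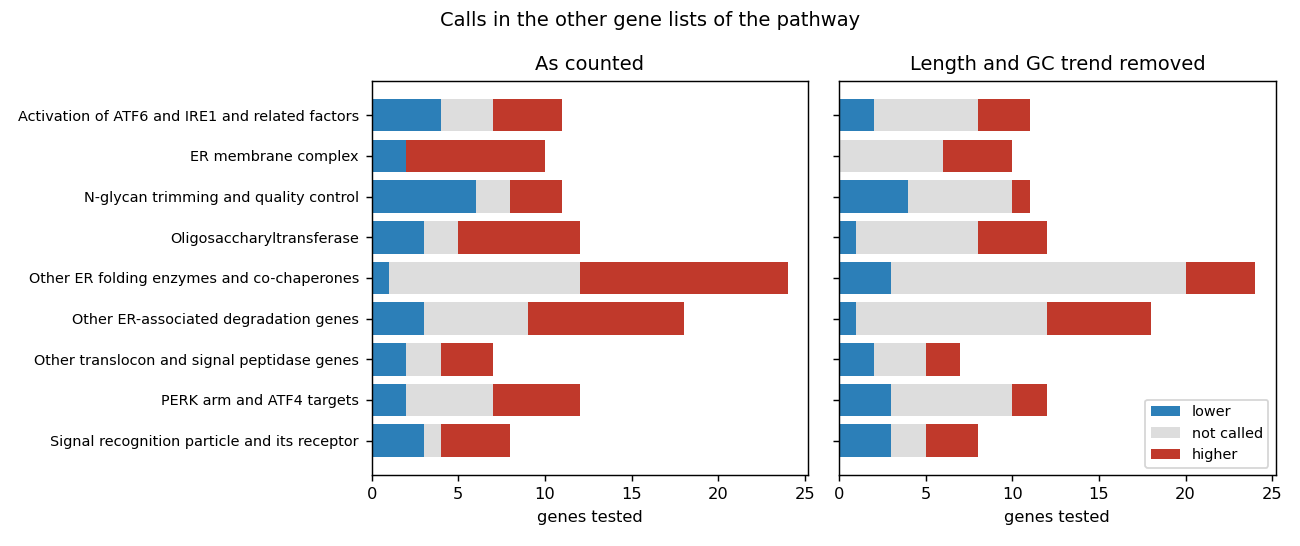
Number of genes called lower, not called and called higher with EET (x axis, genes tested) in each of 9 lists of other genes of the pathway, as counted (left panel) and after removal of the length and GC trend (right panel). On the left 55 of 113 genes are higher and 26 lower, and on the right 29 and 19.

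Summed levels of several cell type marker sets differed between the groups, and those of others overlapped. Of the 44 markers tested, 9 rose and 16 fell as counted, beside 47.9% of all tested genes called. Length-adjusted, 1 rose and 20 fell, beside 33.1%. All 9 muscle stem cell markers were detected, of which 5 rose and 1 fell as counted and 1 rose and 1 fell length-adjusted. Myod1 was at 977 ± 42.4 CPM in the controls and 1159 ± 13.9 CPM with EET, and Pax7 at 114 ± 4.71 and 83.5 ± 1.64 CPM (SD, n = 3 each). As counted Myod1 rose (0.25 ± 0.063, adjusted p = 0.0047) and Pax7 fell (−0.45 ± 0.067, adjusted p = 6.34e-05); length-adjusted Myod1 fell (−0.15, adjusted p = 0.0115) and Pax7 was not called (−0.051, adjusted p = 0.486). The 9 markers summed to 3391 to 3692 CPM in the controls and 3897 to 3983 CPM with EET. The summed level of 6 endothelial markers was 255 to 270 CPM in the controls and 140 to 159 CPM with EET, where 5 of 6 fell, and 6 length-adjusted. The 5 pericyte markers summed to 155 to 175 and 104 to 110.0 CPM (3 fell and 1 rose; length-adjusted 3 fell). The 3 tenocyte markers summed to 25.5 to 26.2 and 41.4 to 51.4 CPM (2 rose; length-adjusted 0). The 6 fibro-adipogenic markers summed to 327 to 333 and 287 to 307 CPM (2 fell; length-adjusted 3). The 5 Schwann cell markers summed to 200 to 212 and 172 to 209 CPM, with overlap, and 3 fell and 1 rose (length-adjusted 2 fell). The 6 macrophage markers summed to 297 to 328 CPM in the controls and to 371, 199 and 187 CPM in EET replicates 1, 2 and 3. EET replicate 1 thus lay above the controls and the other EET libraries below them. Of these markers 2 fell (length-adjusted 3). Markers of B and plasma cells, which are rich in this ER machinery, summed to 5.7 to 7.77 CPM in the controls and 4.75 to 6.5 CPM with EET. Of those 6, Mzb1 and Tnfrsf17 did not pass the filter and 0 of the other 4 were called as counted. Length-adjusted, Ighm (−0.83, adjusted p = 0.0127) and Jchain (−0.76, adjusted p = 0.0232) were lower. The part of these other cells in the changes of the ER genes was not tested.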

How the data were processed

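The authors deposited 1 table of counts per gene symbol for 6 libraries. Its values are whole numbers and were not normalized. Per the submitters' processing notes, FastQC, cutadapt, DESeq2 and GRCm38 were used in roles they do not state. For the aligner, the counter, the use of strand and the annotation release, nothing is given in the sources used here. Precision is lower than the library totals would give: even numbers made up 61.3 to 62.1% (control) and 65 to 65.6% (EET) of counts of 11 to 50, so mates may have been counted apart, and counts divided by 2 were tried. All pairs of libraries differed by more than sampling noise (chi-square per gene of at least 5.92).

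From the counts, edgeR 4.0.16 in R 4.3.3 (filterByExpr, TMM, robust estimateDisp and glmQLFit, glmQLFTest) compared 3 EET with 3 control libraries without a block, with Benjamini-Hochberg adjustment over 16097 genes and a threshold of 0.05. Standard errors were derived from the p-values. For length-adjusted values, each library's deviation in log2 CPM (prior count 2) from the mean of the 6 was fitted on mRNA length and GC content of protein-coding genes (loess, span 0.3, degree 1, GENCODE M21 on GRCm38) and entered as an offset; 53669 of 55494 symbols matched, 377 through RefSeq synonyms. Both steps were run on simulated counts. The trend added there was the one the same loess had fitted, so the run cannot show whether the correction suits these libraries. Same-numbered libraries did not deviate together from their group means (correlations of −0.0501 to 0.00893). The length trend was not removed first, so these correlations cannot tell whether the numbers mark a shared animal or batch. The members and lists were chosen with earlier results of these data known. All 37 members may be named; values in every library are given for the 16 members with the smallest p and for Hspa5, Hsp90b1, Xbp1, Atf6, Ern1, Ddit3, Atf4 and Eif2ak3, and 2 genes with the smallest p are named per list. Alternatives were other scalings, no filter, DESeq2 1.42.0, a replicate block, other length settings and leaving out each library.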

Additional observations from a re-analysis of the deposited data

How the results depend on the processing

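The number of members called stayed between 23 and 25 under the other scalings, without the filter, with DESeq2, with counts divided by 2, and with the trend removed, and ran from 18 to 25 without 1 library (13 to 16 higher and 5 to 9 lower). With the replicate block, 25 members and 8321 of all genes were called, beside 24 and 7716 without it. No source used here states whether the replicate numbers pair the libraries. Length-adjusted, 22 to 26 members were called with the other spans, lengths and loess degree, and 13 to 23 members were called without 1 library (6 to 14 higher and 7 to 10 lower). Removing the trend took all genes called higher from 3967 to 2326 (2455 with the replicate block) and the other genes of the pathway from 81 to 48 called and from 55 to 29 higher (31 with the replicate block). With the median transcript, 3506 of all genes were higher length-adjusted. The cause of these shifts was not tested. The low counts of Derl3 and the number of libraries limit what could be detected.

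Signs of the log2 fold change turned as follows. Removing the trend turned Dnajc3 0.10, Sdf2l1 −0.057, Calr −0.16, P4hb −0.019, Pdia5 −0.25, Edem1 0.19, Ssr2 −0.049, Ssr3 −0.012, Ssr4 −0.015, Ddit3 −0.90, Emc4 −0.13, Tmem258 −0.059, Selenos −0.020, Sec11c −0.28, Sec11a −0.085 and Cebpb −0.13. Adding the replicate block to that fit gave Dnajc3 0.10, Sdf2l1 −0.056, Calr −0.16, P4hb −0.018, Pdia5 −0.25, Edem1 0.19, Ssr2 −0.049, Ssr3 −0.011, Ssr4 −0.014, Ddit3 −0.90, Emc4 −0.13, Tmem258 −0.052, Selenos −0.022, Sec11c −0.28, Sec11a −0.084 and Cebpb −0.13. Scaling by library totals turned Hspa5 −0.0078, P4hb −0.029, Ssr1 −0.022 and Ddit3 −0.032. Of the length-adjusted values, the median transcript turned Hspa5 −0.10, Sdf2l1 0.47, Edem1 −0.35, Syvn1 0.088, Ssr2 0.33, Ssr3 0.084, Ssr4 0.72, Emc4 0.51, Tmem258 0.92, Selenos 0.53, Sec11c 0.47, Sec11a 0.36 and Cebpb 0.089. Length alone turned Pdia6 −0.0075 and Ssr3 0.018, and a loess of degree 2 (chosen after the data were seen) turned Ssr4 0.026 and Tmem258 0.024. Without 1 library, values crossed 0 for Dnajb9 from −0.12 to 0.061, Herpud1 from −0.035 to 0.012 and Ddit3 from −0.040 to 0.13 as counted, and for P4hb from −0.043 to 0.020, Pdia6 from −0.024 to 0.050, Syvn1 from −0.11 to 0.0051, Ssr3 from −0.032 to 0.0045, Ssr4 from −0.066 to 0.016, Tmem258 from −0.18 to 0.011 and Selenos from −0.067 to 0.050 length-adjusted.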
